A study of Caenorhabditis elegans with 2 samples.

Results

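The vitamin B6 salvage genes of *C. elegans* are *F57B9.1*, *pdxk-1* and *F09E5.8*, 3 of the 46904 genes listed in the RNA-seq table. They were chosen by name for their known roles, with earlier results of these data known, and each was found in the table by its WormBase identifier (WBGene00018996, WBGene00019008 and WBGene00017286). RNA was taken from whole worms of N2, the wild-type laboratory strain. They were fed on *L. plantarum* together with 0.2 µl of either the *E. coli pdxH* mutant or its wild-type parent BW25113. The methods describe the collected worms as being of the same stage and give no age. In the study's growth assays, worms given *L. plantarum* with this trace of the *pdxH* mutant arrested early in development. The worms themselves carried no mutation in either group, both groups ate the same *L. plantarum*, and the *pdxH* strain comes from a collection in which single genes are replaced by a kanamycin cassette. Each diet gave 1 library, so no value below has a replicate, no test between the diets is possible, and every interval is a 95% interval of counting error alone.

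Animals do not build vitamin B6 from simple precursors. They take up its forms from food and microbes and convert them into pyridoxal 5′-phosphate (PLP), the coenzyme of aminotransferases, decarboxylases and many other enzymes of amino acid metabolism. In the salvage route a kinase first phosphorylates pyridoxal, pyridoxine and pyridoxamine, and an oxidase that holds flavin mononucleotide then turns the phosphates of pyridoxine and pyridoxamine into PLP. A small PLP-binding protein with no known enzymatic activity takes part in keeping the level of free PLP steady. In *E. coli*, *pdxH* encodes the oxidase step, so the comparison asks how the worm's own salvage genes were expressed when that bacterial step was missing from the trace bacteria.

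All 3 genes had higher levels with the *pdxH* mutant than with wild-type *E. coli*, but the differences were small. This direction was common, as 51.8% of the 13227 genes described below had a log2 ratio above 0. *F57B9.1*, the worm counterpart of the bacterial oxidase, was 1.21-fold higher, a log2 ratio of 0.28. *pdxk-1*, the pyridoxal kinase, was 1.101-fold higher, a log2 ratio of 0.14. *F09E5.8*, the PLP-binding protein, was 1.06-fold higher, a log2 ratio of 0.08 whose interval included 0. None of the 3 genes passed a log2 ratio of 0.5. This limit applies to the ratio of the levels with a pseudocount of 1 RPM. The study set its threshold on the statistic of the GFOLD program, which is another quantity. Of 13227 genes whose reads in both libraries added up to at least 100, 2.29% were over 0.5 and 7.36% under -0.5, or 9.65% past it in either direction.

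The sources used here name the ce11 genome, whose coordinates are those of the WBcel235 assembly. *F57B9.1* lies on chromosome III from 6962090 to 6963319, *pdxk-1* on chromosome I from 4848425 to 4850716 and *F09E5.8* on chromosome II from 5350669 to 5351993, each on the plus strand. *F57B9.1* has 2 annotated transcripts that encode the same protein of 226 residues. They differ in an additional 5′ untranslated exon and in the end of the 3′ untranslated region. *pdxk-1* has 3 transcripts that encode proteins of 321, 331 and 311 residues. Its transcripts differ in a separate first coding exon, which is followed by an intron of 585 bases, and in the length of another coding exon. *F09E5.8* has 1 transcript of 7 exons that encodes 244 residues. The table gives 1 value per gene, so the transcripts of *F57B9.1* and of *pdxk-1* cannot be told apart in it.

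**Figure D1:**
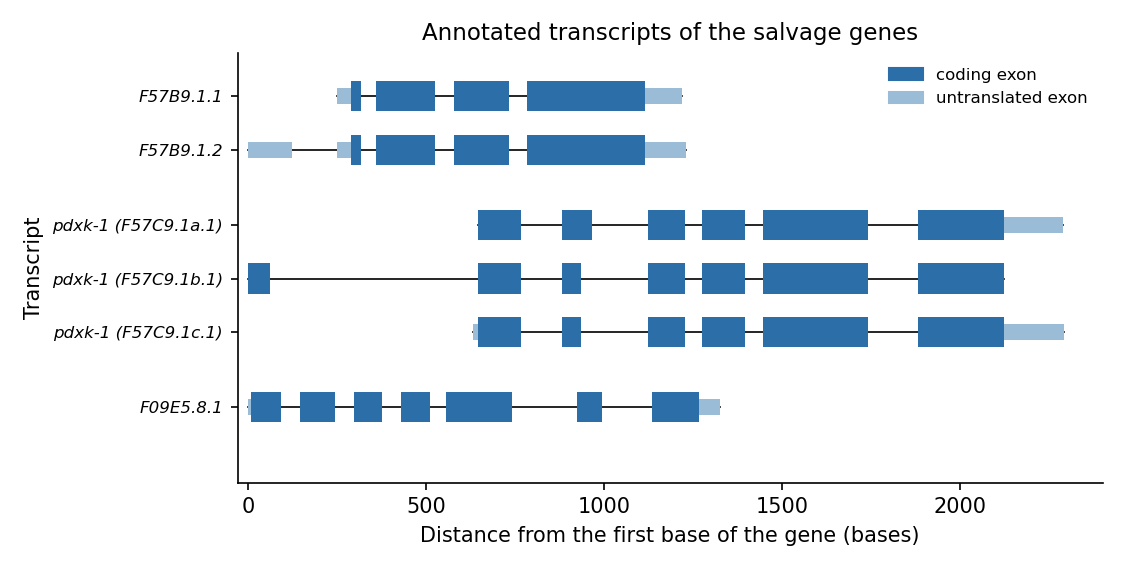
Annotated transcripts of the 3 salvage genes, drawn 5′ to 3′ by distance in bases from the first base of each gene, with coding exons dark and untranslated exons light. The merged exons cover 956 bases in *F57B9.1*, 1207 in *pdxk-1* and 801 in *F09E5.8*, and the longest intron, of 585 bases, is the first one of a *pdxk-1* transcript.

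*F57B9.1* encodes the pyridoxamine-phosphate oxidase, the enzyme that makes PLP from the phosphates of pyridoxine and pyridoxamine. It had 4344 reads with the *pdxH* mutant and 3142 reads with wild-type *E. coli*. Scaled to reads per 1000000 reads assigned to genes (RPM), these were 93.7 RPM with the *pdxH* mutant (95% Clopper-Pearson interval 90.9 to 96.5) and 77.2 with wild-type *E. coli* (74.5 to 79.9). The library with the *pdxH* mutant was the higher, by 21.4%, and the counting intervals of the libraries did not overlap. The log2 ratio of 0.28 had an interval of 0.21 to 0.35. Of the 13227 genes, 1727 had a higher log2 ratio than *F57B9.1*, and 27.3% had one at least as large in either direction.

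*pdxk-1* encodes the pyridoxal kinase, which adds the phosphate that keeps vitamin B6 inside the cell. It had 2607 reads with the *pdxH* mutant and 2079 reads with wild-type *E. coli*, or 56.2 RPM (54.1 to 58.4) with the *pdxH* mutant and 51.1 RPM (48.9 to 53.3) with wild-type *E. coli*. The library with the *pdxH* mutant was the higher, by 10.1%, and the intervals of the libraries did not overlap. The log2 ratio of 0.14 had an interval of 0.05 to 0.22. A log2 ratio at least as large in either direction was found for 54.9% of the genes.

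*F09E5.8* encodes the worm member of the family of PLP homeostasis proteins, known in bacteria as YggS and in humans as PLPBP. It had 1274 reads with the *pdxH* mutant and 1059 reads with wild-type *E. coli*, or 27.5 RPM (25.99 to 29.0) with the *pdxH* mutant and 26.01 RPM (24.5 to 27.6) with wild-type *E. coli*. The intervals of the libraries overlapped. The log2 ratio of 0.08 had an interval of -0.04 to 0.20, so no difference was detectable at this depth. As a fold of the level with wild-type *E. coli*, the interval ran from 0.97 to 1.15. A log2 ratio at least as large in either direction was found for 72.8% of the genes.

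The counting interval lay above 0 for 2 of the 3 salvage genes. Over all genes with at least 100 reads it lay above 0 for 28.7% and below 0 for 27%, so an interval that leaves out 0 was common in these libraries. These shares were not matched to the salvage genes for depth, and counting intervals narrow as reads increase. The spread between worm cultures is not known. If a coefficient of variation between cultures is added to the counting error, a calculation chosen after the data were seen, the interval of *F57B9.1* reaches 0 at 6.79% and that of *pdxk-1* at 2.77%.

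The 3 log2 ratios were set against each other within the same libraries. The log2 ratio of *F57B9.1* exceeded that of *pdxk-1* by 0.14 (95% counting interval of the difference 0.03 to 0.25) and that of *F09E5.8* by 0.20 (0.07 to 0.34). Those of *pdxk-1* and *F09E5.8* differed by 0.06 (-0.08 to 0.20), which was within the counting error. Together the salvage genes had 177 RPM with the *pdxH* mutant and 154 with wild-type *E. coli*. The oxidase gene made up 52.8% of these reads with the *pdxH* mutant and 50.0% with wild-type *E. coli*. The kinase gene made up 31.7% with the *pdxH* mutant and 33.1% with wild-type *E. coli*. These are shares of reads, not divided by the length of each gene.

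Levels of different genes can be compared only per length. Per kilobase of merged exon, *F57B9.1* was the highest of the salvage genes, with 98.0 RPM per kilobase with the *pdxH* mutant and 80.7 with wild-type *E. coli*. *pdxk-1* followed at 46.6 with the *pdxH* mutant and 42.3 with wild-type *E. coli*. On the same scale, *F09E5.8* was at 34.3 with the *pdxH* mutant and 32.5 with wild-type *E. coli*. The level of the oxidase gene was 2.104 times that of the kinase gene with the *pdxH* mutant and 1.91 times with wild-type *E. coli*. The level of the kinase gene was 1.36 times that of *F09E5.8* with the *pdxH* mutant and 1.303 times with wild-type *E. coli*. The order was the same in both libraries and also per kilobase of coding sequence, and no neighbors in this order had overlapping counting intervals. Whether they differ beyond the spread between cultures cannot be said with 1 library per diet. Among the 18339 protein-coding genes with reads, 93.5% had a lower level per kilobase than *F57B9.1* with the *pdxH* mutant and 92.2% with wild-type *E. coli*. For *F09E5.8*, the lowest of the salvage genes, these shares were 83.0% with the *pdxH* mutant and 81.9% with wild-type *E. coli*.

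**Figure D2:**
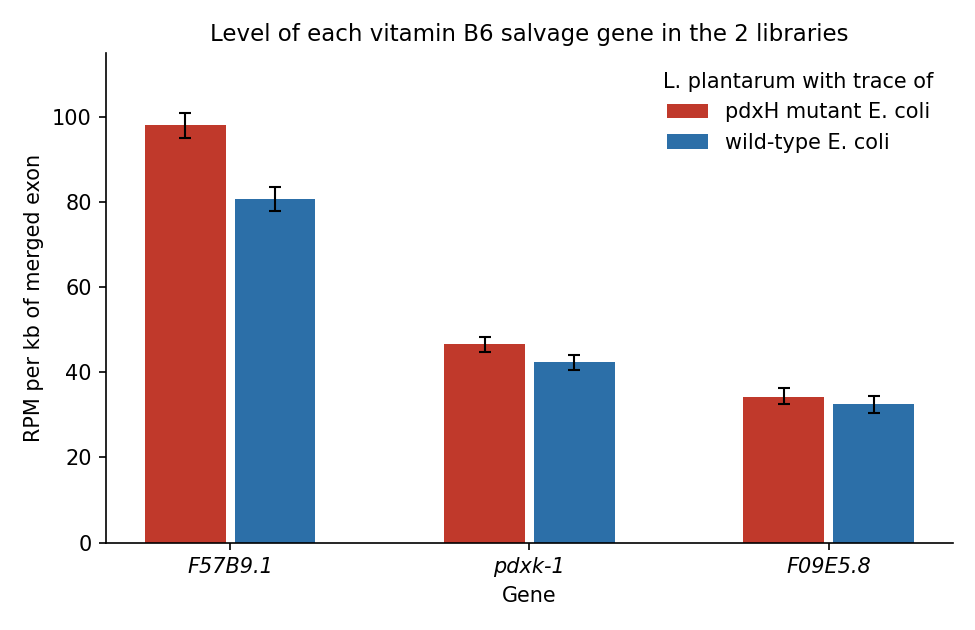
Level of each salvage gene in RPM per kilobase of merged exon, with the *pdxH* mutant library in red and the wild-type *E. coli* library in blue. Bars show the single library of each diet and error bars the 95% Clopper-Pearson counting interval; the bars of *F57B9.1* stand apart at 98.0 with the *pdxH* mutant and 80.7 with wild-type *E. coli*, while the intervals of *F09E5.8* overlap.

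The salvage genes were placed among all genes by level and log2 ratio. The middle 95% of the 13227 genes had log2 ratios from -1.004 to 0.49, and the median was 0.01. All 3 salvage genes lay inside this range and above the median. With 2 libraries a pattern consists of 1 level and 1 ratio, so many genes share it. Within a distance of 0.1 in the plane of the log2 level and the log2 ratio lay 39 protein-coding genes for *F57B9.1*, 89 for *pdxk-1* and 141 for *F09E5.8*. The closest were *C16H3.3* and *Y105C5A.15* for *F57B9.1*, *ttr-47* and *mms-19* for *pdxk-1*, and *spe-48* and *hpo-31* for *F09E5.8*. For *C16H3.3*, the closest to the oxidase gene, the reads were 4364 with the *pdxH* mutant and 3133 with wild-type *E. coli*, a log2 ratio of 0.29.

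**Figure D3:**
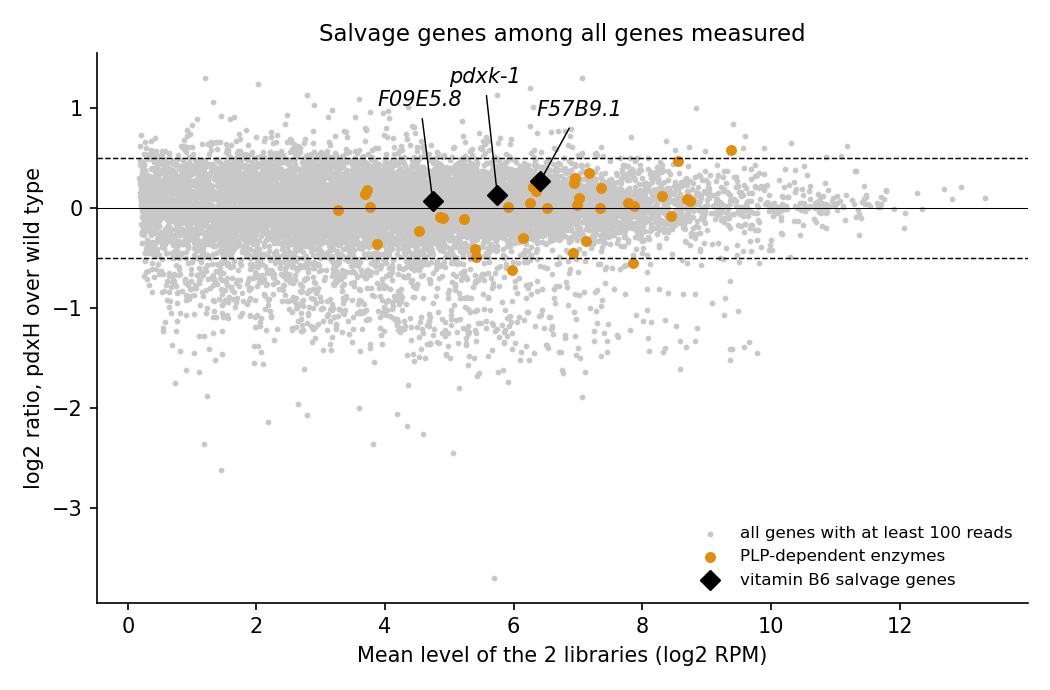
Log2 ratio, *pdxH* over wild type, against the mean level of the 2 libraries in log2 RPM, with 1 point for each of the 13227 genes with at least 100 reads. Diamonds mark the salvage genes at 0.28, 0.14 and 0.08, orange points mark PLP-dependent enzymes, and the dashed lines at 0.5 and -0.5 enclose all 3 salvage genes.

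The enzymes that use PLP form the downstream side of the pathway. A list of 43 genes of PLP-dependent enzymes was drawn up by name, of which 42 were found in the table and 36 had at least 100 reads. Their log2 ratios ran from -0.62 to 0.58 with a median of 0.02, beside a median of 0.01 over all genes. Of the 36 genes, 1 was over 0.5 and 2 were under -0.5, beside 2.29% over and 7.36% under these values among all genes. The counting interval lay above 0 for 14 of the 36, or 38.9%, and below 0 for 11, or 30.6%, beside 28.7% above and 27% below among all genes. Each of the 36 genes had at least 842 reads in the 2 libraries together. Counting intervals narrow as reads increase, so the shares of intervals are not matched for depth. The log2 ratio of *F57B9.1* was higher than that of 32 of the 36 genes, that of *pdxk-1* higher than 26 and that of *F09E5.8* higher than 23. In the same order, 4, 10 and 13 of the 36 genes had a higher log2 ratio. Among all 13227 genes, 13.1%, 28.7% and 38.0% had one at least as high.

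The highest of the PLP-dependent genes was *cysl-2*, which encodes an enzyme of the cysteine synthase family. It had 37193 reads with the *pdxH* mutant and 21824 with wild-type *E. coli*, a log2 ratio of 0.58 and thus past 0.5. *eppl-1*, which encodes an ethanolamine-phosphate phospho-lyase, had a log2 ratio of 0.47, and *F26H9.5*, the phosphoserine aminotransferase of serine synthesis, had one of 0.35. At the other end, *oatr-1*, the ornithine aminotransferase, had 2293 reads with the *pdxH* mutant and 3106 with wild-type *E. coli*, a log2 ratio of -0.62. *tatn-1*, the tyrosine aminotransferase, had a log2 ratio of -0.55 and *T09B4.8* one of -0.49. The salvage genes thus lay between these ends, with the oxidase gene near the upper one. Per kilobase of exon, 12 of the 36 genes had a higher level than *F57B9.1* with the *pdxH* mutant and 14 with wild-type *E. coli*. A higher level than that of *F09E5.8* was found for 21 of them with the *pdxH* mutant and 24 with wild-type *E. coli*.

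**Figure D4:**
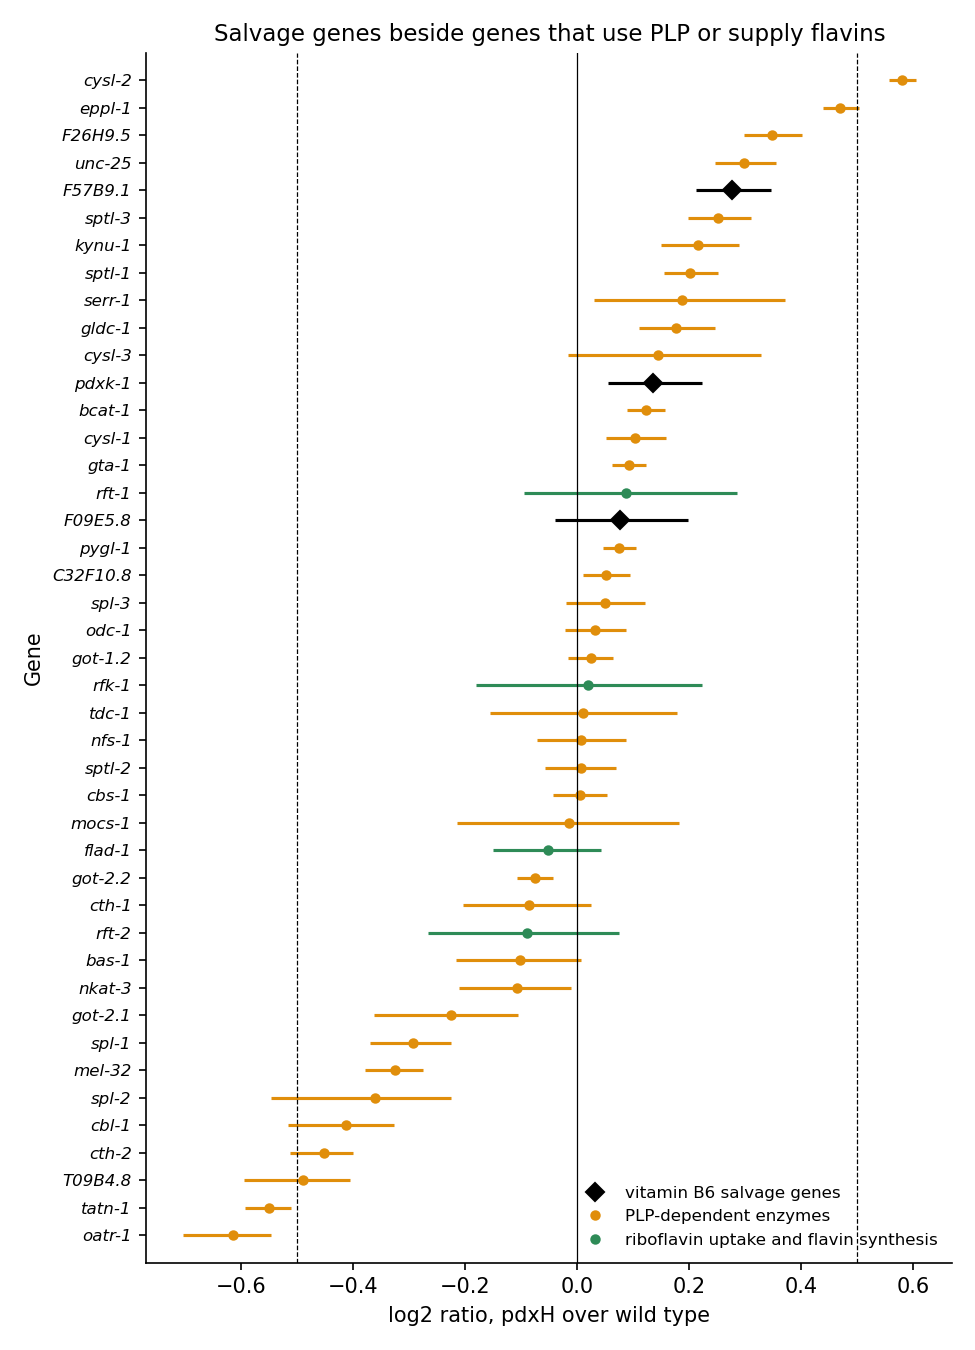
Log2 ratio, *pdxH* over wild type, of the 3 salvage genes (black diamonds), 36 PLP-dependent enzymes (orange) and 4 genes of riboflavin uptake and flavin synthesis (green), sorted by value. Lines are 95% counting intervals and dashed lines mark 0.5 and -0.5; *F57B9.1* has the fifth highest point, and the intervals of *F09E5.8* and of all 4 flavin genes include 0.

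The oxidase holds flavin mononucleotide, which the worm makes from riboflavin. The riboflavin transporter genes *rft-1* and *rft-2* had log2 ratios of 0.09 (-0.10 to 0.29) and -0.09 (-0.27 to 0.07). *rft-1* had 505 reads with the *pdxH* mutant and 415 with wild-type *E. coli*, and *rft-2* had 583 with the *pdxH* mutant and 547 with wild-type *E. coli*. The riboflavin kinase gene *rfk-1*, whose enzyme makes flavin mononucleotide, had 437 reads with the *pdxH* mutant and 378 with wild-type *E. coli*, a log2 ratio of 0.02 (-0.18 to 0.22). *flad-1*, the gene for the synthase of flavin adenine dinucleotide, had a log2 ratio of -0.05 (-0.15 to 0.04). All 4 intervals included 0, and with at most 1844 reads per library these genes were measured less precisely than *F57B9.1*.

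The genes next to the salvage genes were read for values that could share their reads or their position. *F57B9.1* and *rpn-6.1*, which encodes a subunit of the proteasome, point away from each other with 88 bases between them. *rpn-6.1* had 5344 reads with the *pdxH* mutant and 4857 with wild-type *E. coli*, a log2 ratio of -0.05 (-0.11 to 0.01). The log2 ratio of *F57B9.1* exceeded that of *rpn-6.1* by 0.33 (95% counting interval of the difference 0.24 to 0.42), which was beyond the counting error. On its other side, *panl-2* had a log2 ratio of 0.04, and *F57B9.1* exceeded it by 0.24 (0.14 to 0.34). No gene overlapped *F57B9.1*.

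The last 51 bases of *pdxk-1* overlap an exon of *rga-6* on the opposite strand. *rga-6* had 789 reads with the *pdxH* mutant and 582 with wild-type *E. coli*, a log2 ratio of 0.24 (0.09 to 0.41). Whether the counting used strand is not given in the sources used here, so reads from these shared bases cannot be assigned to either gene with certainty. On the other side of *pdxk-1*, *clec-90* had a log2 ratio of -0.11 (-0.37 to 0.11). *F25F8.1*, the next protein-coding gene to the right beyond *rga-6*, lies 34186 bases from *pdxk-1* and had one of 0.15 (0.02 to 0.30). *pdxk-1* exceeded *clec-90* in log2 ratio by 0.27 (0.02 to 0.51). Its differences from *rga-6*, of -0.11 (-0.29 to 0.06), and from *F25F8.1*, of -0.02 (-0.18 to 0.14), were within the counting error.

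*F09E5.8* is followed on the same strand by *F09E5.7*, with 105 bases between them. *F09E5.7* had 1904 reads with the *pdxH* mutant and 1753 with wild-type *E. coli*, a log2 ratio of -0.07 (-0.16 to 0.03). The difference between *F09E5.8* and *F09E5.7* was 0.15 (-0.003 to 0.30), whose interval just included 0. The nearest protein-coding gene on its other side, *F09E5.14*, lies 5793 bases away and had a log2 ratio of 0.43 (0.27 to 0.70). Between *F09E5.8* and *F09E5.14* the log2 ratios differed by -0.40 (-0.64 to -0.16), beyond the counting error. No gene overlapped *F09E5.8*.

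The libraries held 46372171 reads with the *pdxH* mutant and 40707752 with wild-type *E. coli*. Of 5 neuron markers all had log2 ratios above 0, from 0.07 to 0.27, with intervals above 0 for 4 and one including 0 for *rab-3*. Their summed level was 597 RPM with the *pdxH* mutant and 532 with wild-type *E. coli*. The 5 germline markers all had log2 ratios below 0, with 168 RPM in sum with the *pdxH* mutant and 251 with wild-type *E. coli*. The 5 intestine markers summed to 1663 RPM with the *pdxH* mutant and 2095 with wild-type *E. coli*. Among them *act-5* at -0.50, *ifb-2* at -0.32 and *vha-6* at -0.24 had log2 ratios with intervals below 0, while the intervals of *ges-1* and *elt-2* included 0. The 4 muscle markers, all below 0, summed to 7226 RPM with the *pdxH* mutant and 8413 with wild-type *E. coli*. The 4 epidermis markers summed to 242 RPM with the *pdxH* mutant and 364 with wild-type *E. coli*, but they were divided, with the collagen genes *dpy-7* and *dpy-10* at -1.18 and -1.08 and the transcription factor genes *elt-1* and *elt-3* at 0.16 and 0.17. The 3 pharynx markers summed to 1602 RPM with the *pdxH* mutant and 1636 with wild-type *E. coli*, with *myo-1* at -0.06, *myo-2* at -0.04 and *tnc-2* at 0.31 (0.24 to 0.39). The 5 vitellogenin genes, which mark adults, had only 22 reads in all with the *pdxH* mutant and 25 with wild-type *E. coli*, and *vit-5* had 0 in both libraries. In whole worms, a change in the share of a tissue and a change of expression within it cannot be told apart. With 1 library per diet, how far the worms had developed cannot be told apart from the diet itself. The part of these marker differences, and of developmental progress, in the ratios of the salvage genes was not tested.

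The salvage genes had log2 ratios above 0 under each scaling tried, but scaling to 1 reference gene changed their size. *act-1*, the actin gene that served as the qPCR reference in the study, had 10206 reads with the *pdxH* mutant and 11042 with wild-type *E. coli*, a log2 ratio of -0.30 (-0.34 to -0.26). Relative to *act-1* every gene is shifted up by that amount, and *F57B9.1* then had a log2 ratio of 0.58, *pdxk-1* one of 0.44 and *F09E5.8* one of 0.38, so that *F57B9.1* passed 0.5. The other reference genes were *cdc-42* at 0.02, *pmp-3* at 0.05, *iscu-1* at 0.04, *ama-1* at -0.15 and *tba-1* at -0.20. Relative to the median of all 6 reference genes, *F57B9.1* had a log2 ratio of 0.34, *pdxk-1* one of 0.20 and *F09E5.8* one of 0.14. *act-1* has close copies among the actin genes, and how the counting treated reads that match several genes is not given in the sources used here. The part of such reads in its ratio was not tested.

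**Figure D5:**
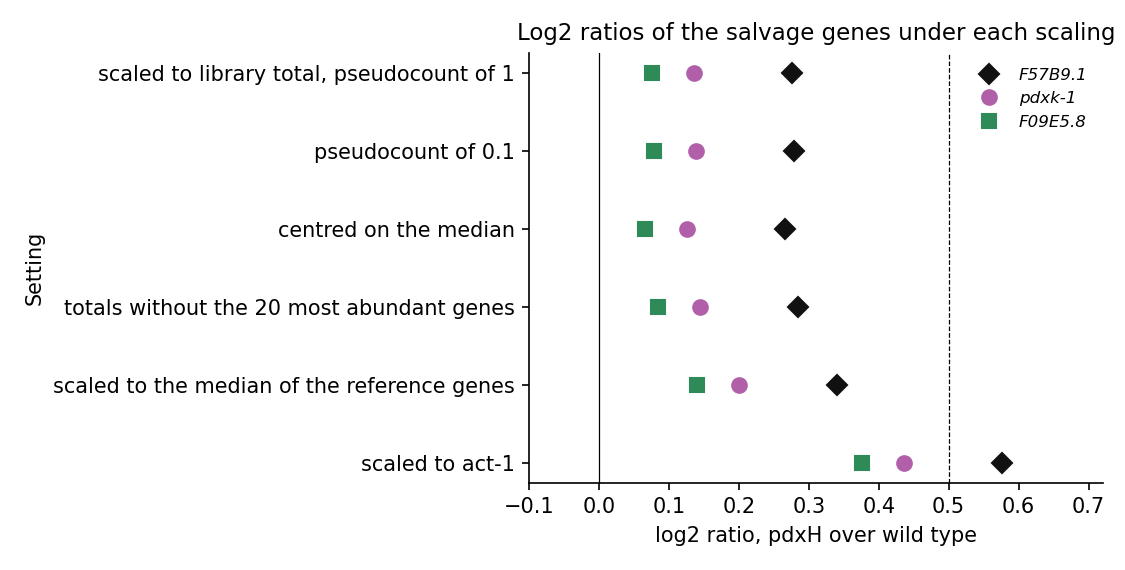
Log2 ratio, *pdxH* over wild type, of *F57B9.1*, *pdxk-1* and *F09E5.8* under 6 settings listed on the vertical axis, each point being the ratio of the single libraries. The points stay within 0.07 of the first setting except when scaled to *act-1*, where they lie at 0.58, 0.44 and 0.38 and *F57B9.1* passes the dashed line at 0.5.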

How the data were processed

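Whole-worm RNA was sequenced in 1 library per diet. According to the methods and the submitters' processing notes, Trimmomatic, STAR 2.5.3a and HTSeq served the authors for trimming, mapping and counting, and GFOLD 1.1.4 for the comparison. Gene annotation and strand settings of the counting are not given in the sources used here. The deposited signal values are named RPKM, but all genes had been given the same length of 20 bases by the authors, which leaves only a scaling to the library total. Each was divided by the value of 1 read (1.08 with the *pdxH* mutant and 1.23 with wild-type *E. coli*). Of the values worth up to 20 reads, 100% came out within 0.02 of a whole number in both libraries, as did 97.6% of all values above 0 with the *pdxH* mutant and 97.8% with wild-type *E. coli*. The 3 columns of the authors' own comparison (fold changes and an error rate) were not used.

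Log2 ratios were computed from reads per 1000000 assigned reads (RPM) with a pseudocount of 1, and intervals from the exact binomial split of each gene's reads, without a pseudocount. Differences between log2 ratios have normal-approximation intervals. Intervals cover counting error only. Symbols, exons and lengths came from Ensembl release 115 (WBcel235) and the gene tables given, which matched all 3 genes. The genes named were the salvage genes, their overlapping and nearest protein-coding neighbors, and the 2 genes closest to each salvage gene. Also named were the 3 highest and 3 lowest PLP-dependent genes, all flavin and reference genes, and members of a list of tissue markers. The salvage genes and lists were chosen with earlier results of these data known. Python 3.11.15 and scipy 1.17.1 were used. The procedures were tested on simulated reads of 23141 genes for this comparison, with 200 made higher or lower by 1 on the log2 scale. The count test with a log2 ratio past 0.5 recovered 191 of them and called 1 unchanged gene, and 95.8% of the intervals held the true value. These simulated reads held counting error only. The planted size of 1 and the limit of 0.5 were above the salvage genes' log2 ratios as scaled to library totals. The recovery therefore does not describe differences of their size.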

Additional observations from a re-analysis of the deposited data

How the results depend on the processing

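No paired analysis was possible because there was a single library for each diet, which also meant that none could be left out. The log2 ratios of the salvage genes stayed above 0 under each of the 5 alternatives tried. Only scaling to *act-1* moved them outside their counting intervals, to 0.58 for *F57B9.1*, 0.44 for *pdxk-1* and 0.38 for *F09E5.8*. Per kilobase of coding sequence instead of exon, the RPM with the *pdxH* mutant were 137.6 for *F57B9.1*, 56.4 for *pdxk-1* and 37.4 for *F09E5.8*, against 113.3, 51.3 and 35.4 with wild-type *E. coli*. Against 303 higher and 973 lower genes past a log2 ratio of 0.5, a threshold of 1 gave 12 higher and 337 lower. A pseudocount of 0.1 gave 592 higher and 1156 lower, and no filter beyond 1 read gave 333 higher and 1070 lower. The other alternatives for these counts and for the median of the PLP-dependent enzymes stayed close to the values reported. The recovered reads were also put to an exact binomial test, which was added after the data were seen and compares the libraries and not the diets. With Benjamini-Hochberg adjustment it called 3440 genes higher and 3277 lower of 13227 at an adjusted p of 0.05, and 303 and 973 of these were past 0.5. At this depth the counting intervals of *F09E5.8* and of the 4 flavin genes included 0, and the spread between cultures was not measured.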
